A study of Physalis pubescens with 5 samples.

Results

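The transcripts described here are those whose best protein hit was named as a late embryogenesis abundant (LEA) protein, a dehydrin, an abscisic stress ripening protein, a seed maturation protein, an oleosin or a seed storage globulin or albumin. They were chosen by words in the deposited descriptions, without use of any measured value, and 32 of the 133571 unigenes met the rule, where unigenes are the study's assembled transcripts. LEA proteins and dehydrins are small, very water-soluble proteins that build up late in seed development and in drying tissues, pollen among them, and help to protect membranes and other proteins as water is lost. Their genes commonly respond to abscisic acid, the hormone of seed maturation and drought. Oleosins coat the oil bodies of seeds and of some floral tissues, and legumin-type globulins and 2S albumins are stored as the nitrogen reserve of the seed.

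Young fruits collected after fertilization (2 libraries) were compared with floral buds collected before it (2 libraries), all from Physalis floridana P106, a nightshade with the labelled organism Physalis pubescens. The plants were untransformed as far as the labels say and were kept under glass on a cycle of 16 h light and 8 h dark, and a protocol text shared by all samples mentions fruits 5 days old. Neither the number of plants per library nor separate plants for the replicates are stated, so the p-values speak only of how far these libraries scatter, which may be technical. The design text speaks of triplicates, and a further sample, of buds and fruits mixed for assembling the transcripts, was not analysed here. Pairs of values below are for replicates 1 and 2 of an organ, in that order.

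The libraries held 8240033 to 9002212 uniquely mapped reads, so that 1 count equalled 0.111 to 0.121 CPM (the count scaled to a common library size) and 3 counts, used as the detection floor, equalled 0.333 to 0.364 CPM. The fruit libraries stood far apart. Over the 59858 unigenes left by the filter on low counts, log2 CPM correlated with a Pearson's r of 0.645 for the fruit pair. For the bud pair r was 0.891. Between organs it was 0.768 for the replicates 1 and 0.94 for the replicates 2. Fruit replicate 1 with floral bud replicate 2 gave 0.672, and fruit replicate 2 with floral bud replicate 1 gave 0.861. The points are unigenes that share libraries, so this is a description. The 61 unigenes of an anther and pollen list summed to 875 and 7290 CPM in young fruit, compared with 3407 and 4079 CPM in floral bud. Of these 61, 14 had no count in fruit replicate 1 and 4 in fruit replicate 2, against 3 in each bud library. Of all 133571 unigenes, 115652 and 104421 had at least 1 count in the fruits, against 119786 and 103959 in the buds. A LAT52-like transcript (Unigene54708_P106), the relative of a tomato pollen protein, had 6 and 7124 counts in the fruits against 5189 and 5677 in the buds. The list was uneven, and counts over its tested unigenes are given below. The anther-specific LAT61 transcript (Unigene7273_P106) had 773 and 550 counts in the fruits against 710 and 753 in the buds. A C13-like transcript (Unigene53762_P106) alone held 495 of the 875 CPM in fruit replicate 1. The anther and pollen sum in fruit replicate 2 thus stood above both buds, although that library is labelled as fruit. The files do not settle whether this label is right or whether floral parts were included, and this limit holds for every value of fruit replicate 2 below. The 20 unigenes of a green tissue list summed to 9075 and 2494 CPM in young fruit, compared with 3265 and 2881 CPM in floral bud. For these reasons each result is given for either fruit library as well as for both, and the part of these markers in the results was not tested.

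Of the 32 members, 23 had their best hit in tomato and 3 in potato, and 12 carried a deposited gene ontology term. The terms named response to stress for protein LE25 and the 18 kDa seed maturation protein-like transcript, fertilization for one of the LEA protein 1-like transcripts (Unigene54684_P106), and the lipid particle for 2 oleosins (Unigene64430_P106 and Unigene144594_P106). The member unigenes were 172 to 924 bases long, with a median of 495.5, against 333 over all unigenes. Many were rare. Of the 32, 9 had fewer than 10 counts over all libraries together, 20 had at least 1 count in every library, and 17 had 3 counts or fewer in fruit replicate 1 and 12 did in fruit replicate 2, against 10 and 12 in the bud libraries. The filter on low counts left 18 members, among them 7 of the 14 LEA proteins other than LE25, 2 of the 6 oleosins and 2 of the 5 storage proteins. Counts of members below refer to these 18, and a member that passed through high counts in 1 organ was bound to show a difference, so such counts describe the members that passed.

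With p-values adjusted by Benjamini-Hochberg over all tested unigenes, edgeR's quasi-likelihood method called 0 of the 18 members higher and 0 lower in fruit, as it called 0% of all unigenes in either direction. At an unadjusted p under 0.05 by the same method, 1 of the 18 members was higher, the ci21A-like transcript below, and 0 were lower. Of all 59858 tested unigenes, 305 were higher and 666 lower at that limit. DESeq2's Wald test called 1 of the 17 members it tested higher, against 0.0491% of all unigenes, and 0 lower, against 0.21%. The median log2 fold change of fruit over floral bud was -0.40 over the members and 0.01 over all tested unigenes. All 32 members together summed to 1081 and 1740 CPM in young fruit, compared with 1753 and 2107 CPM in floral bud, so that the fruits were further apart than the buds.

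**Figure D1:**
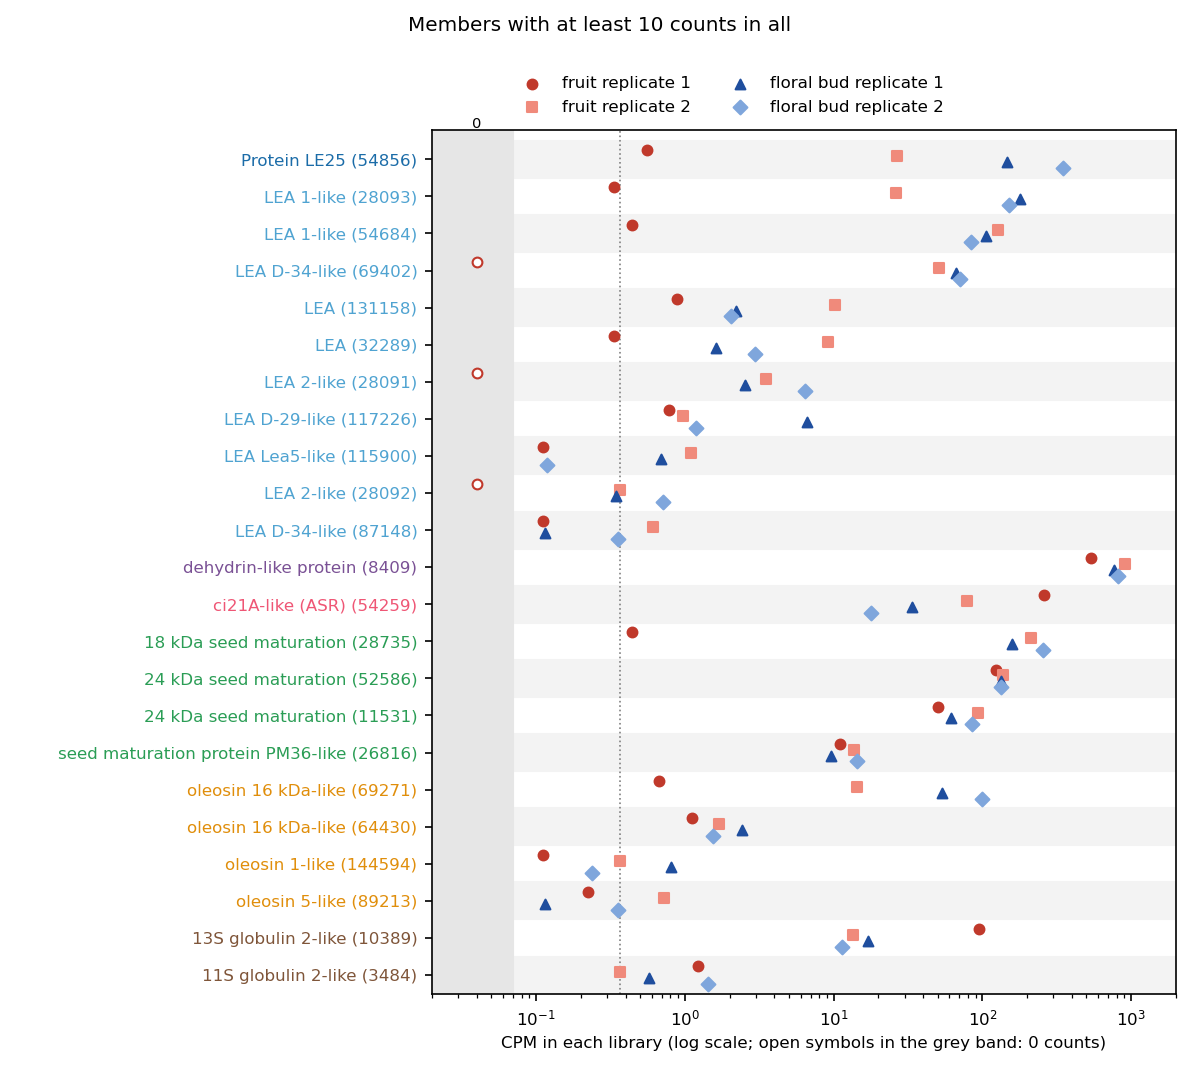
CPM of the 23 members with at least 10 counts over all libraries, on a log axis, with 1 symbol per library and the unigene number in brackets; open symbols in the grey band are 0 counts, and the dotted line is the floor of 3 counts in the shallowest library. Fruit replicate 1 lies far to the left of the other libraries for protein LE25, for both LEA protein 1-like transcripts, for the D-34-like Unigene69402_P106, for the 18 kDa seed maturation protein and for 1 oleosin, and far to the right for the ci21A-like and 13S globulin transcripts.

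Fruit replicate 1 held the lowest level of the 4 libraries for 14 of the 18 members, where this held for 33.5% of all tested unigenes. That count takes any margin, and some of the 14 share a protein hit. Unigene52586_P106, for example, had 124 CPM there against 133 to 139 CPM in the other libraries. Within replicate 1, the fruit level was at least 4-fold lower for 8 of the 18 members, against 6.87% of all unigenes, and at least 4-fold higher for 2, against 0.986%. Within replicate 2, 3 members were at least 4-fold lower, against 0.785%, and 2 were at least 4-fold higher, against 1.06%. The members' median log2 change was -1.43 within replicate 1 and 0.07 within replicate 2, where all tested unigenes had -0.04 and 0. The first of these medians was the same with the 2 members that had no count in fruit replicate 1 set at the floor. Each of these comparisons rests on 1 library per organ and has no replicate check.

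**Figure D2:**
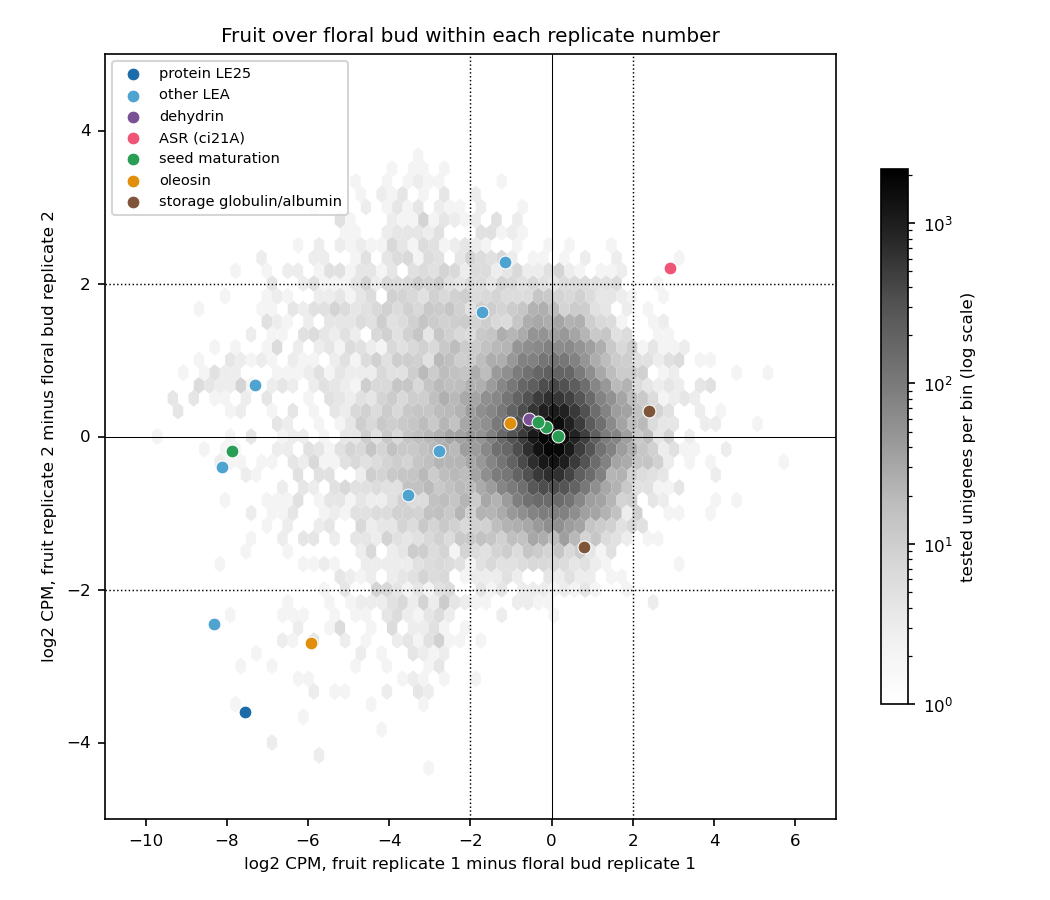
Log2 change of fruit over floral bud within replicate 1 (horizontal) and within replicate 2 (vertical) for the 18 tested members, coloured by class, over the 59858 tested unigenes in grey; dotted lines mark 4-fold. Protein LE25, a LEA protein 1-like transcript and an oleosin were at least 4-fold lower in fruit on both axes and the ci21A-like transcript at least 4-fold higher on both, while 3 members at the far left lie near 0 on the vertical axis.

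Protein LE25, 1 of the LEA protein 1-like transcripts and 1 oleosin were lower in both fruit libraries than in both buds. They are the 3 members at least 4-fold lower in fruit within both replicates, against 0.66% of all tested unigenes. Protein LE25 (Unigene54856_P106) is the product of a tomato LEA gene that responds to drought and abscisic acid. Its transcript had 0.56 and 26.8 CPM in young fruit, compared with 147 and 346 CPM in floral bud. Both fruits lay below both buds, and in proportion the fruits differed from each other by more than the buds did. In bulk tissue, fewer cells of a type and less RNA per cell cannot be told apart. Within replicate 1 it was 265-fold lower in fruit (exact 95% interval for counting error 113 to 817), and within replicate 2 it was 12.9-fold lower (11.2 to 14.9). Over all 4 libraries its log2 fold change was -4.07 (SE 1.82), and edgeR's adjusted p (quasi-likelihood, Benjamini-Hochberg) was 1.

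The LEA protein 1-like transcript Unigene28093_P106, for another small hydrophilic LEA protein, had 0.33 and 26.2 CPM in young fruit, compared with 180 and 152 CPM in floral bud. Here the buds were close together and again above both fruits. The 3 counts in fruit replicate 1 made it 540-fold lower than in floral bud replicate 1 (185 to 2623), and within replicate 2 it was 5.80-fold lower (5.02 to 6.73). The fitted log2 fold change was -3.52 (SE 1.82; edgeR adjusted p = 1). The oleosin 16 kDa-like transcript Unigene69271_P106 encodes an oil body coat protein. It had 0.67 and 14.4 CPM in young fruit, compared with 53.6 and 100.1 CPM in floral bud. It was 80.3-fold lower in fruit within replicate 1 (36.6 to 220.1) and 6.93-fold lower within replicate 2 (5.71 to 8.47), and its log2 fold change over all libraries was -3.25 (SE 1.46; edgeR adjusted p = 1). Altogether 5 members had both fruits below both buds, where 12.4% of all tested unigenes did: these 3, the LEA protein D-34-like transcript Unigene69402_P106 and the rare LEA protein D-29-like transcript Unigene117226_P106. The last had 0.78 and 0.97 CPM in young fruit, compared with 6.59 and 1.19 CPM in floral bud, so that its bud level rested on floral bud replicate 1.

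The 7 unigenes with vicilin, a storage globulin, in their names are left out by the rule. Together they had 6.44 and 357 CPM in young fruit, compared with 4905 and 5109 CPM in floral bud. Nearly all of this came from the 4 tested ones, named vicilin-like antimicrobial peptides 2-2-like. The others, named only vicilin, had 5 counts or fewer in every library and were not below the buds in fruit replicate 2. The sum of all 7 in fruit replicates 1 and 2 was 0.00129 and 0.0714 times the mean of the buds. The corresponding ratios were 0.00225 and 0.109 for protein LE25, 0.00201 and 0.158 for the LEA protein 1-like transcript, and 0.00868 and 0.188 for the oleosin. For the anther and pollen list they were 0.234 and 1.95. In fruit replicate 2 these 3 members and the vicilin sum stood below the buds, and the anther and pollen sum stood above them. The part of pollen or floral tissue in these values was not tested.

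**Figure D3:**
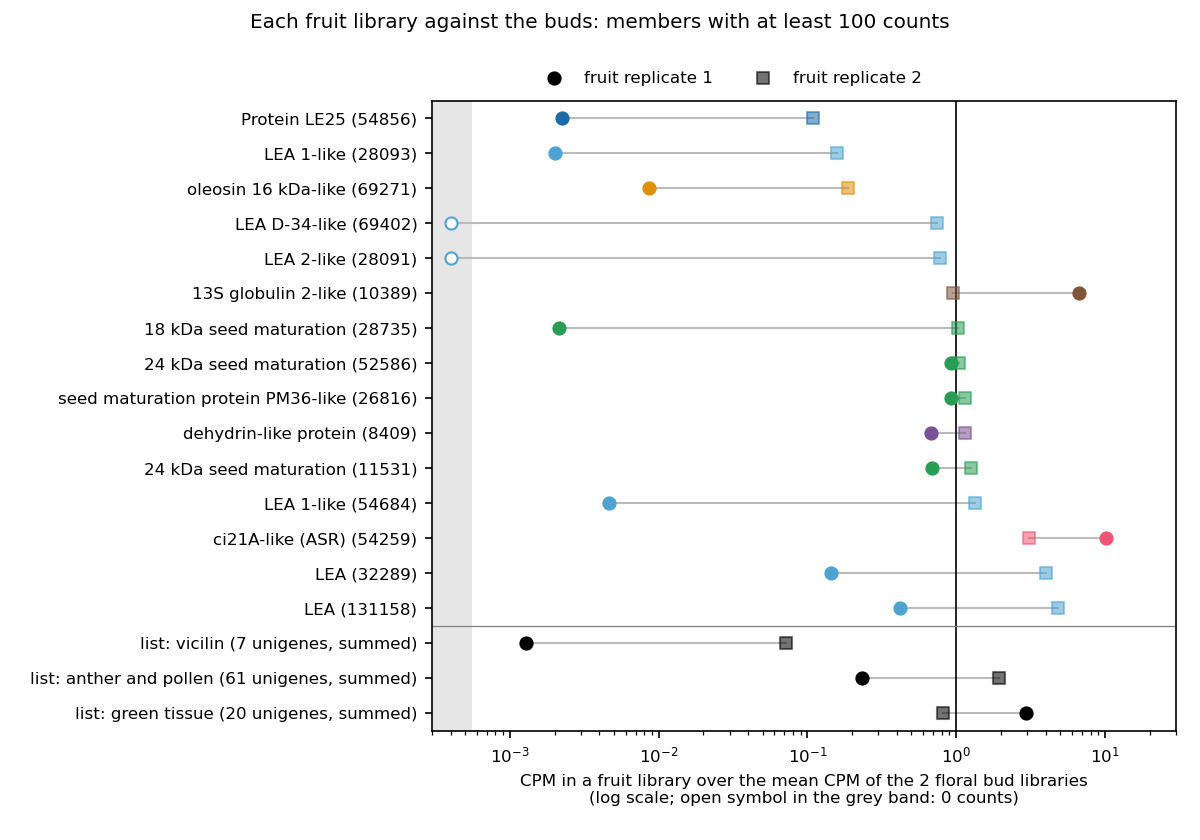
Level of each member with at least 100 counts in fruit replicate 1 (circles) and fruit replicate 2 (squares), as a ratio to the mean of both floral bud libraries on a log axis, with the summed vicilin, anther and pollen, and green tissue lists at the bottom; open circles in the grey band are 0 counts, and the vertical line is a ratio of 1. Protein LE25, 1 LEA protein 1-like transcript and 1 oleosin have both symbols well left of the line, whereas 4 other members with circles at the far left have squares near 1.

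A second group of LEA and seed maturation transcripts was almost absent from fruit replicate 1 and near the bud level in fruit replicate 2. The 18 kDa seed maturation protein-like transcript (Unigene28735_P106), called a LEA-like protein by the other set of deposited descriptions, had 0.44 and 213 CPM in young fruit, compared with 158 and 255 CPM in floral bud. Fruit replicate 2 lay between the buds. It was 355-fold lower in fruit within replicate 1 (138 to 1305) and 1.20-fold lower within replicate 2 (1.12 to 1.27).

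The other LEA protein 1-like transcript (Unigene54684_P106) had 0.44 and 128 CPM in young fruit, compared with 106.2 and 84.3 CPM in floral bud. In fruit replicate 2 it was the highest of the 4 libraries, unlike its namesake Unigene28093_P106. These namesakes matched 1 protein in the descriptions of replicate 1, though not in those of replicate 2, so their separate levels are uncertain. Within replicate 1 Unigene54684_P106 was 239-fold lower in fruit (93.0 to 879). Within replicate 2 it was 1.52 times as high in fruit as in bud (1.38 to 1.67). The LEA protein D-34-like transcript (Unigene69402_P106), related to a cotton LEA gene, had 0 counts in fruit replicate 1 and, with 51.1 CPM in replicate 2, was there somewhat below the 66.6 and 71.2 CPM of the buds. Set at the floor of 3 counts in that library, it was at least 199.9-fold lower in fruit within replicate 1. A LEA protein 2-like transcript (Unigene28091_P106) followed the same pattern at a low level. It had 0 counts in fruit replicate 1 and 3.52 CPM in replicate 2, against 2.54 and 6.45 CPM in the buds. Set at the floor, it was 7.64-fold lower within replicate 1, and its interval began at 5.70-fold. Reads reached only 21.7 to 22.4% of its length in the 3 libraries where it was seen, and reads that match several unigenes are not counted, so its level is uncertain. The log2 fold changes of these 4 transcripts over all libraries were between -1.31 and -0.44 with SEs of 1.61 to 2.15, and each had an adjusted p of 1 by edgeR.

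Beside this group stand the anther and pollen values. Of the 49 tested unigenes of that list, 36 were lower in fruit replicate 1 than in both buds, against 37.3% of all tested unigenes. In fruit replicate 2, 7 were lower than in both buds, against 31.1% of all, and 31 were higher than in both, against 30%. Its median log2 change was -3.08 within replicate 1 and 0.36 within replicate 2. For the 4 members above, the change within replicate 2 ran from -0.77 to 0.68 on the same log2 scale.

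A pair of LEA transcripts reached their highest level in fruit replicate 2. Both matched the same tomato LEA protein, so their separate levels are uncertain. Unigene131158_P106 had 0.89 and 10.2 CPM in young fruit, compared with 2.20 and 2.03 CPM in floral bud. Unigene32289_P106 had 0.33 and 9.22 CPM in young fruit, compared with 1.62 and 2.99 CPM in floral bud. Within replicate 2 they were 5.02 times (2.96 to 9.03) and 3.09 times (1.94 to 5.07) as high in fruit as in bud, and within replicate 1 they were 0.404 times (0.153 to 0.967) and 0.206 times (0.0379 to 0.737) as high. This group, like the preceding ones, was put together after the values were seen.

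The dehydrin was the most abundant member, with fruit and bud levels that overlapped. Dehydrins are LEA proteins that bind membranes and are made in cold, drought and seed drying. The dehydrin-like transcript (Unigene8409_P106) had 533 and 913 CPM in young fruit, compared with 766 and 818 CPM in floral bud. The fruits lay on either side of the buds. Per length, its mean level of 1022 RPKM (counts scaled by unigene length and by library) ranked 72 among the 133571 unigenes, and it took 49.3 and 52.5% of the members' summed CPM in the fruits, against 43.7 and 38.8% in the buds. The fitted log2 fold change was -0.09 (SE 0.52; edgeR adjusted p = 1).

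The other seed maturation transcripts also overlapped between the organs. The 24 kDa seed maturation protein-like transcript Unigene52586_P106 had 124 and 139 CPM in young fruit, compared with 133 and 134 CPM in floral bud. Its namesake Unigene11531_P106 had 50.3 and 92.7 CPM in young fruit, compared with 61.6 and 85.4 CPM in floral bud, and the seed maturation protein PM36-like transcript (Unigene26816_P106) had 11.1 and 13.7 CPM in young fruit, compared with 9.60 and 14.3 CPM in floral bud. The log2 fold changes of these 3 transcripts were -0.0007, 0.0013 and 0.07, with SEs of 0.36 to 0.51. The 24 kDa unigenes matched 1 protein in every file, so their separate levels are uncertain. The 3 transcripts share the words seed maturation with the 18 kDa transcript but not its near absence from fruit replicate 1. Per length, the 18 kDa transcript averaged 213 ± 301 RPKM in fruit and 412 ± 137 RPKM in floral bud, and the 24 kDa transcript Unigene52586_P106 averaged 234 ± 18.4 RPKM in fruit and 238 ± 0.61 RPKM in floral bud (SD, n = 2 each).

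The ci21A-like transcript was higher in both fruits than in both buds. It was the member DESeq2 called and 1 of 18 above both buds, where 10.2% of all tested unigenes were. The ci21A gene of potato belongs to the abscisic stress ripening (ASR) family, small plant proteins induced by abscisic acid, drought and, in tomato, fruit ripening; the other set of deposited descriptions names the same unigene (Unigene54259_P106) Asr2. It had 260.2 and 78.9 CPM in young fruit, compared with 33.4 and 17.9 CPM in floral bud. The fruits lay well apart, and the lower fruit was still above the higher bud. It was 7.78 times as high in fruit as in bud within replicate 1 (6.88 to 8.83) and 4.40 times as high within replicate 2 (3.68 to 5.30). It alone of the 18 members was at least 4-fold higher within both replicates, against 0.0384% of all tested unigenes. The fitted log2 fold change was 2.70 (SE 0.69), and the Benjamini-Hochberg adjusted p was 1 by edgeR and 0.00542 by DESeq2.

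A second ASR transcript entered only where the descriptions of either file set were searched. ASR4 (Unigene54991_P106) had 1113 and 1422 CPM in young fruit, compared with 761 and 760 CPM in floral bud. Both fruits were above both buds, by 1.46 times within replicate 1 (1.42 to 1.51) and 1.87 times within replicate 2 (1.82 to 1.93). The fitted log2 fold change was 0.77 (SE 0.46; edgeR adjusted p = 1). Its level per length was 2495 ± 430 RPKM in fruit and 1497 ± 2.47 RPKM in floral bud (SD, n = 2 each), above that of every member chosen by the rule.

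A storage globulin of the legumin type stood above the buds in fruit replicate 1, where the vicilin sum stood below them. The 13S globulin seed storage protein 2-like transcript (Unigene10389_P106) had 94.5 and 13.6 CPM in young fruit, compared with 17.1 and 11.3 CPM in floral bud. Only fruit replicate 1 was high, and fruit replicate 2 lay between the buds. Within replicate 1 it was 5.52 times as high in fruit as in bud (4.63 to 6.62) and within replicate 2 it was 1.20 times as high (0.903 to 1.59). The fitted log2 fold change was 1.87 (SE 0.91; edgeR adjusted p = 1). The green tissue sum also stood highest in fruit replicate 1, at 2.95 times the mean of the buds. This globulin stood there at 6.64 times its bud mean. Of the 19 tested unigenes of that list, 1 was lower in fruit replicate 1 than in both buds, against 37.3% of all. The part of green tissue in the globulin's level was not tested.

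The remaining storage proteins and oleosins were near the limit of detection. The 11S globulin seed storage protein 2-like transcript (Unigene3484_P106) had 11 and 3 counts in the fruits, against 5 and 12 in the buds. A 2S albumin-like transcript (Unigene104228_P106) had 0 and 3 counts in the fruits, against 4 and 1 in the buds, and a pre-pro-legumin transcript (Unigene60980_P106) had 1 and 0, against 1 and 0. The second oleosin 16 kDa-like transcript (Unigene64430_P106) had 1.11 and 1.70 CPM in young fruit, compared with 2.43 and 1.55 CPM in floral bud, with a log2 fold change of -0.46 (SE 0.57). It did not share the pattern of its namesake. The oleosin 1-like transcript (Unigene144594_P106) had 1 and 3 counts in the fruits, against 7 and 2 in the buds. The oleosin 5-like transcript (Unigene89213_P106) had 2 and 6 counts in the fruits, against 1 and 3 in the buds. The 18.5 kDa oleosin-like unigenes and the second 13S globulin unigene (Unigene68678_P106) had 4 counts or fewer in every library.

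Most of the LEA members left out by the filter were related to ones described above. A Lea5-like transcript (Unigene115900_P106), named after another cotton LEA gene, had 1 and 9 counts in the fruits, against 6 and 1 in the buds. The LEA protein 2-like unigenes Unigene28092_P106 and Unigene28094_P106 had 0 counts in fruit replicate 1, as their namesake did, with 3 and 2 counts in fruit replicate 2, against 3 and 1 counts in floral bud replicate 1 and 6 and 5 in floral bud replicate 2. The other D-34-like unigenes, of which Unigene87148_P106 had the most counts, had 5 or fewer in every library, and so did the remaining LEA-related unigene (Unigene98789_P106). Within replicate 2, where single libraries are compared, the counting interval of the ratio of fruit over bud lay above 1 for the Lea5-like transcript, at 9.15 (1.27 to 401), and below 1 for the 11S globulin transcript Unigene3484_P106, at 0.254 (0.046 to 0.942). Within replicate 1 both ratios pointed the other way, at 0.160 (0.00348 to 1.32) and 2.11 (0.677 to 7.76), with intervals that included 1. Both transcripts were picked with their values in view and rest on few counts, so no organ difference is read from them.

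A further 4 unigenes were named steroleosin, an oil body dehydrogenase of seeds, in the other set of descriptions. They split into 2 patterns. Unigene142139_P106 had 1.22 and 18.8 CPM in young fruit, compared with 17.9 and 21.7 CPM in floral bud, and Unigene90880_P106 had 0.78 and 4.98 CPM in young fruit, compared with 5.20 and 5.13 CPM in floral bud. Unigene142138_P106 had 25.1 and 19.7 CPM in young fruit, compared with 19.2 and 23.5 CPM in floral bud, and Unigene142066_P106 had 7.55 and 7.52 CPM in young fruit, compared with 7.40 and 6.33 CPM in floral bud. The first pair was low in fruit replicate 1 alone and the second pair was at similar levels in the 4 libraries.

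When either fruit library was left out, edgeR called several members, on the assumption that the lone fruit library varied like the buds. Both of these fits use the same bud libraries. With fruit replicate 1 alone against the buds, 7 of the 18 members, 2 of them with 0 counts in that library, were lower, against 6.14% of all tested unigenes, and 2 were higher, against 2.29%. Protein LE25 had a log2 fold change of -8.89 (SE 0.79, adjusted p = 1.67e-11), the 18 kDa seed maturation transcript -8.93 (SE 0.76, adjusted p = 7.18e-12), the 13S globulin transcript 2.64 (SE 0.45, adjusted p = 2.35e-05) and the ci21A-like transcript 3.26 (SE 0.43, adjusted p = 2.17e-07). With fruit replicate 2 alone, 3 members were lower, against 0.466%, and 3 were higher, against 1.44%. In that fit protein LE25 had -3.10 (SE 0.56, adjusted p = 0.00156), the LEA protein 1-like transcript Unigene28093_P106 -2.54 (SE 0.49, adjusted p = 0.00312), the 16 kDa oleosin Unigene69271_P106 -2.30 (SE 0.54, adjusted p = 0.0158) and the ci21A-like transcript 1.75 (SE 0.45, adjusted p = 0.0332). The LEA transcripts Unigene131158_P106 and Unigene32289_P106 had 2.38 (SE 0.54, adjusted p = 0.0132) and 2.11 (SE 0.56, adjusted p = 0.0465). The 18 kDa transcript had 0.16 (SE 0.43, adjusted p = 1) there. With either bud library left out, 0 of 18 members were called in each direction, as were 0% of all unigenes.

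**Figure D4:**
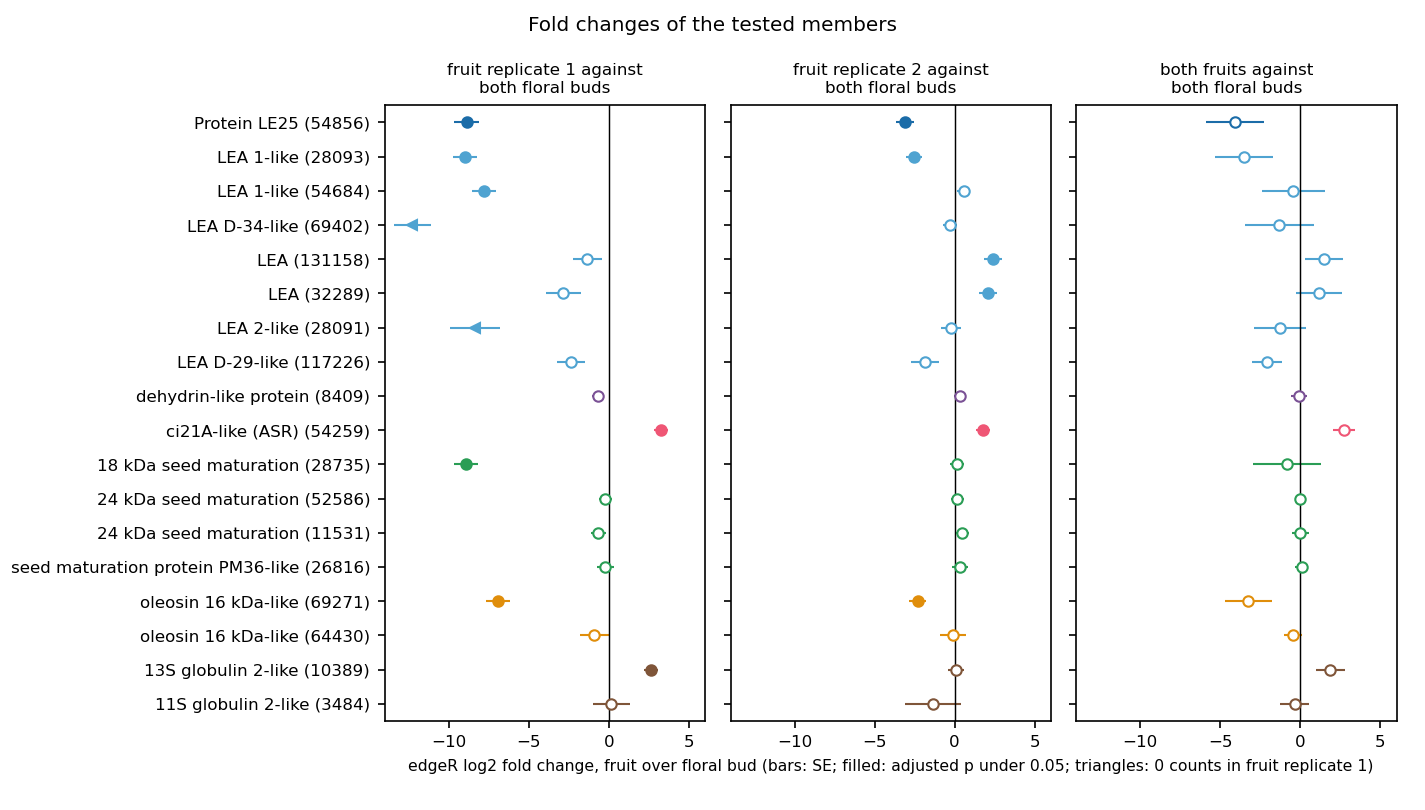
Log2 fold change of fruit over floral bud by edgeR for the 18 tested members with fruit replicate 1 alone, fruit replicate 2 alone and both fruits against both buds; bars are standard errors, filled symbols have an adjusted p under 0.05 over all tested unigenes, and triangles mark members with 0 counts in fruit replicate 1, whose fitted fold change depends on the prior count. Filled symbols stand in the left and middle panels and none in the right one.

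Regulators and partners of seed maturation are given here by their levels, since edgeR called 0% of all unigenes and its counts of 0 below equal that share. In all 10 unigenes were named for ABI3 or as ABI5-like proteins. ABI3 and ABI5 are transcription factors that switch on LEA and storage genes in Arabidopsis seeds. The names do not show that these unigenes do the same. Together the 10 summed to 91.1 and 82.6 CPM in young fruit, compared with 76.9 and 84.9 CPM in floral bud. Most of this came from ABI5-like unigenes, and no ABI3-named unigene exceeded 3.67 CPM in any library. Of the 10, 5 were tested, and edgeR called 0 higher and 0 lower (median log2 fold change 0.08). An ABI3-like transcript (Unigene100549_P106) had 33 and 8 counts in the fruits, against 11 and 7 in the buds. Peroxygenases, the family of the oil body protein caleosin, numbered 7 and summed to 38.8 and 75.4 CPM in young fruit, compared with 67.7 and 68.7 CPM in floral bud, with 0 of 5 tested called in either direction (median -0.27). The 5 tested peroxygenases were each lower in fruit replicate 1 than in both buds, as 37.3% of all tested unigenes were. Enzymes of the raffinose sugars, which protect drying seeds, numbered 7 and summed to 24.9 and 15.9 CPM in young fruit, compared with 26.7 and 15.2 CPM in floral bud, with 0 of 2 tested called. No unigene was described as a 1-Cys peroxiredoxin.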

How the data were processed

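RNA of 2 young fruit and 2 floral bud libraries, grouped by their titles, had been sequenced on an Illumina instrument, per the labels' protocols. The deposited counts are uniquely mapped reads per unigene, per the file headers; each header's total equalled the sum of its column. The deposited RPKM values are those counts divided by unigene length and by the header total, per the file headers, and the deposited coverage is the percent of a unigene's length reached by reads. The sources used here name no assembler, aligner or counter. Each file lists unigenes with at least 1 count, so a missing one was taken as 0, and names come from deposited protein hits, those of replicates 2 first and those of replicates 1 otherwise (30 and 2 members). The tables hold no sequences or positions, and none is printed.

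Members, lists and named unigenes were chosen with earlier results of these data known. Classes follow the descriptions; named were the 3 members with the highest mean CPM per class with at least 10 counts, and any called by edgeR or DESeq2. Further unigenes in the text were picked with their values in view. Counts were fitted on all unigenes with edgeR 4.0.16 in R 4.3.3 (filterByExpr, TMM factors of 1.08 and 0.918 for the fruits and 1.04 and 0.964 for the buds, glmQLFTest, no covariate, 2 residual degrees of freedom), with Benjamini-Hochberg adjustment, a threshold of 0.05 and two-sided tests. The SE of a log2 fold change is its size divided by the root of F. CPM used full library totals; log2 CPM used TMM factors and a prior count of 2. Exact 95% intervals of ratios within a replicate number come from the binomial distribution. They cover counting error only, as no molecular identifiers are described. A fold at the floor leaves out the counting error of the bud library. Exact permutation over 4 libraries bottoms out at a p of 0.333 and was not used. Alternatives were DESeq2 1.42.0, other scaling, no filter, a block, 1 unigene per description, other descriptions and leaving out each library. The fit was tested on simulated data with the same scatter for every unigene and library. That test did not cover fruits that differ more than buds.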

Additional observations from a re-analysis of the deposited data

How the results depend on the processing

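The count of 0 members called by edgeR was the same with size factors of DESeq2's kind, library totals alone, no filter, 1 unigene per description and the descriptions of either file set; DESeq2 called 1 member (Unigene54259_P106) and 158 unigenes in all. Leaving out 1 library gave 0 to 9 members and 0 to 5681 unigenes called, with 6 members and 1225 unigenes without fruit replicate 1, and the highest of each without fruit replicate 2. The labels do not say that equal replicate numbers mark shared plants or days; the deviations of same-numbered libraries had a correlation of 0.466, and with the replicate number as a block 0 members and 0 unigenes were called. Of 74 values of the 13 named and tested members under settings that keep all libraries, 68 kept direction and side of the threshold, 1 became a call and 5 turned direction, all within 0.08 of 0. These 5 were Unigene52586_P106, at -0.0007 in the report and 0.0064 by DESeq2, 0.016 with no filter and 0.015 with DESeq2's size factors, and Unigene11531_P106, at 0.0013 in the report and -0.036 with library totals and -0.072 with the replicate block.

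With 1 library left out, direction turned for 6 named members. The log2 fold change ran from -0.68 to 0.32 for Unigene8409_P106, from -7.79 to 0.55 for Unigene54684_P106, from -8.93 to 0.16 for Unigene28735_P106, from -0.21 to 0.17 for Unigene52586_P106, from -0.66 to 0.45 for Unigene11531_P106 and from -1.32 to 0.50 for Unigene3484_P106. The causes were not tested. Depth limits the 9 members with fewer than 10 counts in all and others with up to 17 counts. The filter on low counts left these untested and kept 18 of the 32 members.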
